A study of Mus musculus with 195 samples.

Results

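Intronic polyadenylation sites are mapped transcript 3′ ends that lie between the exons of their gene, upstream of its last exon. The members are all sites that the deposited isoform table classes as intronic and assigns to a mouse Ensembl gene, 10553 of 94587 sites in the table, with 14959 molecules in 5344 host genes. BATSeq, a single-cell method that reads the junction of transcript and poly(A) tail and counts transcripts by unique molecular identifiers (UMIs, here called molecules), was applied to 48 ESC-2i, 48 ESC-FCS and 48 NSC cells. Besides these, 48 ESC-FCS control cells, 1 pool of 48 ESC-FCS cells and 2 pools of 48 ESC-2i cells were deposited as separate libraries. They are used here as a check.

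Use of a poly(A) site within an intron ends the transcript before the remaining exons and yields either a truncated protein or an unstable RNA. Most introns hold sequences that resemble poly(A) signals, and U1 snRNP, transcription elongation factors such as Cdk12 and the anti-terminators Scaf4 and Scaf8 are known to keep cleavage from occurring there. Some genes nevertheless carry annotated short isoforms with an intronic end.

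ESC-2i cells were mouse embryonic stem cells kept with 1 μM PD0325901, 3 μM CHIR99021 and 10 ng/ml LIF, and ESC-FCS cells were the same kind of cell kept with 10% FBS and 10 ng/ml LIF. NSC were neural stem cells derived from embryonic stem cells and grown without serum, with EGF and bFGF. All were sorted as small cells in G1, and all came from 1 reporter line (46C, derived from E14tg2a), whose GFP reports Sox1. Since no replicate cultures are named in the labels, each population counts as 1 sample, its cells are not replicates, and differences between populations are given without a test. Each population was sequenced as 2 library batches of 24 cells. Intervals are exact 95% intervals and cover counting error only.

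The main set held the 107 cells that are in the deposited table of genes and had at least 1000 molecules on genes, 33 ESC-2i, 33 ESC-FCS and 41 NSC. Their depth ranged from 5342 to 21049 molecules in ESC-2i, from 1079 to 14819 in ESC-FCS and from 1234 to 9037 in NSC. The 8 embryonic stem cell markers summed to 23.9 molecules per 10000 in ESC-2i, to 24.2 for ESC-FCS and 0.0658 for NSC, and the 8 neural stem cell markers to 1.98, 1.59 and 54.6. Markers of other cells that a culture could hold, 6 of 8 measured, were at 0.299, 0.706 and 4.41 per 10000. They were thus highest in NSC, with 67 molecules. The labels list 24 cell barcodes, and every one of them is used in each of the 6 library batches.

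The intronic sites that carry a canonical poly(A) signal are shown first, since they are the most used members with a sequence that could be read. No genome sequence was used, so only sites inside an exon of some GENCODE M21 transcript on GRCm38 could be read, 717 of the 10306 sites in the main set. Each line gives the 30 bases that end at the site, 5′ to 3′ on the coding strand and taken from the GENCODE transcript, with AATAAA or ATTAAA in capitals. Ptprz1 and Bcan were added after their values were seen, because both are used in neural stem cells.
Ppp2r5c, chr12:110570880-110570909, plus strand: aatgtccgcAATAAAacactttccaacttt
Fbrsl1, chr5:110429883-110429912, minus strand: gtaaaAATAAAaagtgccatgccattttta
Nap1l1, chr10:111495112-111495141, plus strand: aaatcttttcAATAAAagctgtctggatgt
Klf3, chr5:64823071-64823100, plus strand: gcacctggggtcccggAATAAAacatggaa
Tatdn1, chr15:58900977-58901006, minus strand: tataacaacaccATTAAAgtgtttttttcc
Ptprz1, chr6:23004644-23004673, plus strand: tgattgagaacAATAAAatatattttatgc
Bcan, chr3:87992525-87992554, minus strand: aaaccttggaAATAAAtctgtATTAAActg

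In the first 6 of these the signal ended 8 to 19 bases before the site, whereas Bcan held AATAAA 14 bases and ATTAAA 3 bases before it. Of the 58 intronic sites with at least 10 molecules, 17 were readable, 12 of them at annotated transcript ends. The rest, among them the sites in Kcnk2 and Grm8, could not be read. Among the 17 readable sites, 15 held AATAAA or ATTAAA in the 40 bases upstream (88.2%, interval 63.6 to 98.5%). The same 2 motifs were in 87.5% of 4788 readable sites of that depth within 10 nt of the gene's annotated end, in 72.0% of 1441 sites in last exons and in 11.4% of 35 sites in upstream exons. All 12 of these intronic sites that were 10 nt or less from an annotated transcript end held a motif, against 3 of 5 that lay farther away. Over all 717 readable sites the share was 39.1% (35.5 to 42.7%), and over all 2374 readable sites in upstream exons it was 7.16%. The motifs were searched on the coding strand only, and a match is a description of the sequence.

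Most members were seen once. Of the 10553 sites, 8754 (83.0%) had 1 molecule, 1587 had 2 to 4, 151 had 5 to 9 and 61 had at least 10, and the last group held 10.1% of the molecules. In the main set the members numbered 10306 sites with 14542 molecules in 5261 genes, 27.1% of the 19412 genes with any molecule. Sites with 1 molecule made up 83.2% of intronic sites, compared with 21.8% of sites within 10 nt of annotated gene ends, 50.8% in last exons and 66.2% in upstream exons. At 14 member sites some cells had molecules of another class, 56 in all, which were not counted as intronic.

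The position of most members matched no annotated transcript. Against GENCODE M21, 294 sites were 10 nt or less from an annotated end of a transcript of the same gene, 472 lay in an annotated exon, 342 overlapped another gene on the same strand, 51 had a host gene without an entry, and 9147 lay outside all of these. The share at annotated ends was 2.07% for sites with 1 molecule, 5.46% for 2 to 4 molecules, 14.2% for 5 to 9 and 20.7% for at least 10. Sites between exons were a median of 4962 nt downstream of the nearest exon, in introns with a median length of 13480 nt.

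Long genes held most of the intronic molecules. In the 4752 genes with the longest span (above 46.7 kb), 9.04% of molecules were intronic (8.87 to 9.21%, 9777 of 108182) and 60.6% of genes had at least 1. It was 1.97% for spans of 16.7 to 46.7 kb, 0.504% for 4.27 to 16.7 kb and 0.0803% for shorter genes. Genes with fewer than 20 molecules had an intronic share of 9.13% and genes with at least 20 molecules one between 1.18 and 1.23% (interval), so a low count of a gene was more often made of intronic molecules. Span and level vary together across genes and were not separated.

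The intronic share of molecules on genes was 1.73% in ESC-2i (1.69 to 1.77%, 6362 of 368363 molecules), 2.09% in ESC-FCS (2.03 to 2.15%, 4737 of 226684) and 2.27% in NSC (2.19 to 2.34%, 3443 of 151877). Between the library batches it was 1.78 and 1.68% in ESC-2i, 2.08 and 2.10% in ESC-FCS, and 2.50 and 2.01% in NSC. Thus both batches of ESC-FCS lay above both of ESC-2i, and the batches of NSC fell on either side of ESC-FCS. Per cell, the share ranged from 0.805 to 2.99% in ESC-2i (median 1.64%), from 1.03 to 4.82% in ESC-FCS (median 1.91%) and from 0.816 to 7.68% in NSC (median 2.13%), so the populations overlapped widely. Counted in reads the share was 1.24, 1.39 and 1.34%, and at sites with at least 10 molecules it was 0.205, 0.263 and 0.228%, so the order of NSC and ESC-FCS turned with the unit and the site depth. Spearman's correlation with the molecules of a cell, over the cells of a population and given as a description, was 0.0354 in 33 ESC-2i cells, -0.0725 in 33 ESC-FCS cells and -0.0801 in 41 NSC cells.

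The separate libraries of the same media held a lower intronic share. It was 0.887% in the ESC-FCS control cells (0.849 to 0.927%, 2001 of 225537 molecules), 0.952% in the ESC-FCS pool (0.907 to 0.998%), and 0.882% and 0.894% in the ESC-2i pools (0.856 to 0.909% and 0.868 to 0.921%). Every one of the 6 batches of the main set lay above every separate library, and within ESC-FCS the main set differed from the control cells by more than any 2 populations of the main set differed from each other. The mean number of reads behind an intronic molecule was 9.19, 7.37 and 7.78 in ESC-2i, ESC-FCS and NSC, and 5.32, 6.42, 2.42 and 3.79 in control cells, ESC-FCS pool and ESC-2i pools. ERCC spike-in molecules mapped over 12 nt from the main end of their spike-in at 0.893% in ESC-2i (0.792 to 1.00%), 1.26% in NSC (1.09 to 1.45%) and 1.00% in control cells (0.714 to 1.37%), with an interval of 1.26 to 1.76% for ESC-FCS. The part of depth and library preparation in the difference was not tested.

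**Figure D1:**
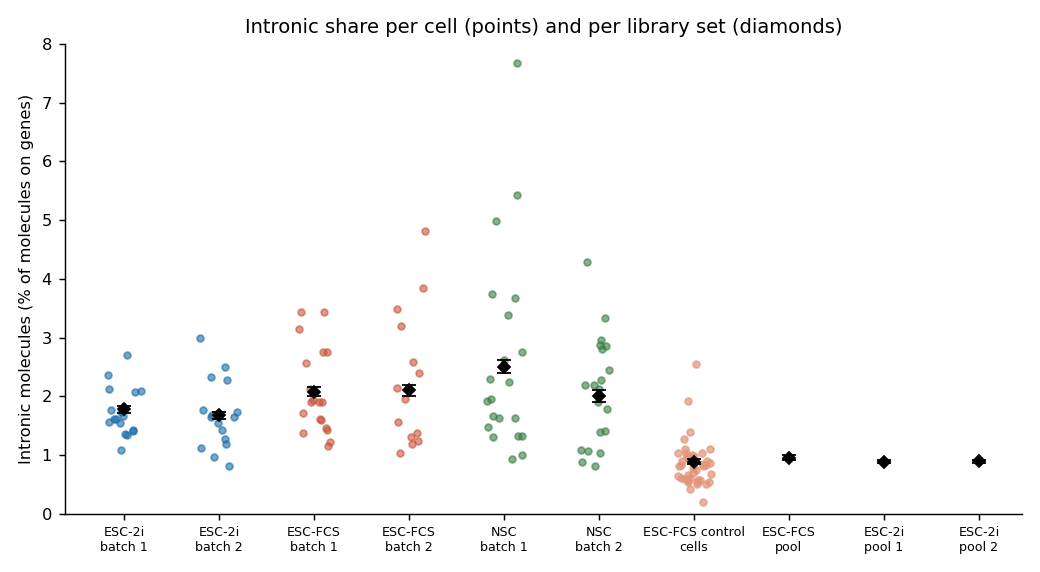
Intronic molecules as a percentage of molecules on genes, for each cell (points) of the 6 library batches and of the 42 control cells with at least 1000 molecules, and for each library set (diamonds with exact 95% intervals). The 6 batches lie between 1.68 and 2.50%, and the control cells and the pools between 0.882 and 0.952%.

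Most of the difference between main and separate libraries lay in members outside annotated exons and other genes. At annotated transcript ends the ESC-FCS intervals of main and separate libraries overlapped, and both ESC-2i pools lay above the main ESC-2i cells. Molecules at annotated transcript ends made up 0.119% of molecules on genes for ESC-2i, 0.118% for ESC-FCS and 0.107% for NSC, with overlapping intervals, and 0.0949% in control cells, 0.108% for the pooled ESC-FCS cells, 0.146% and 0.162% for both ESC-2i pools. The interval was 0.108 to 0.130% in the main ESC-2i cells, and 0.136 to 0.158% and 0.151 to 0.174% in the ESC-2i pools. Members outside annotated exons and other genes made up 1.45% in ESC-2i (1.41 to 1.48%), 1.79% in ESC-FCS (1.74 to 1.85%) and 1.97% in NSC (1.90 to 2.04%), but 0.685% in control cells, 0.726% for the pooled ESC-FCS cells, 0.630% and 0.623% for both ESC-2i pools. Members in annotated exons and in other genes also differed within ESC-FCS, at 0.0993% (0.0867 to 0.113%) and 0.0719% (0.0613 to 0.0838%) in the main set and 0.0665% (0.0563 to 0.0780%) and 0.0355% (0.0281 to 0.0441%) in control cells. Between the populations of the main set, the intervals separated for the members outside annotated exons and other genes and not at annotated ends. In the separate libraries the ESC-FCS pool (0.687 to 0.767%) was above both ESC-2i pools for the unannotated members, while the interval of the control cells (0.651 to 0.719%) overlapped that of the first ESC-2i pool (0.608 to 0.653%).

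**Figure D2:**
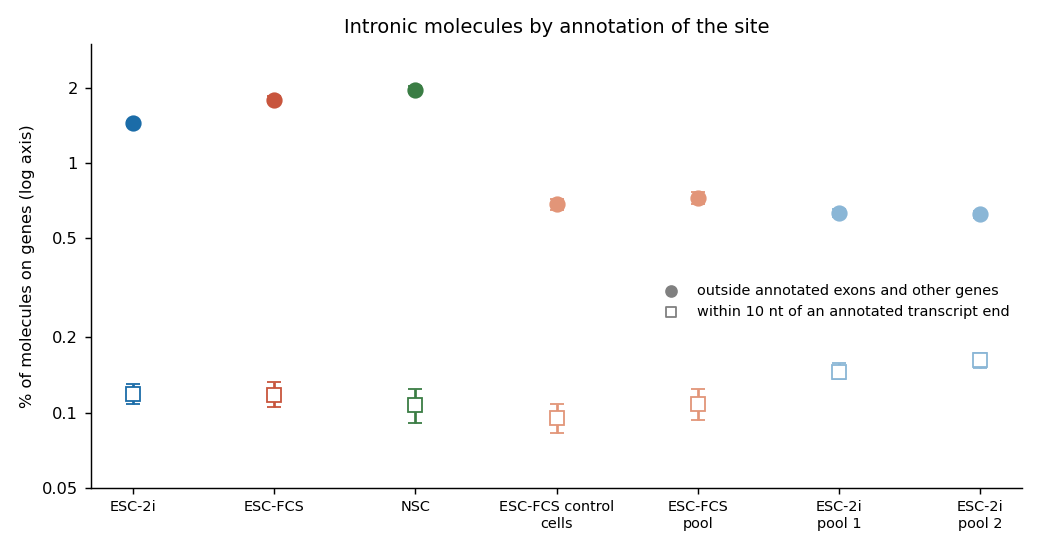
Share of molecules on genes (log axis) at intronic sites within 10 nt of an annotated transcript end (open squares) and at intronic sites outside annotated exons and other genes (filled circles), by library set, with exact 95% intervals. Squares lie between 0.0949 and 0.162% in all 7 sets, while circles lie at 1.45 to 1.97% in the main set and at 0.623 to 0.726% in the separate libraries.

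Deeper sites were found again more often. A site of the same gene and class within 12 nt was present in at least 1 separate library set for 6.50% of the sites with 1 molecule, 22.4% with 2 to 4, 50.7% with 5 to 9 and 77.6% with at least 10 (45 of 58, interval 64.7 to 87.5%). Of those 58 sites, the 12 at annotated ends were all found again, 9 of them in all 4 sets, compared with 25 of 37 outside any annotation, 8 of them in all 4 sets.

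Among the most used sites, members at the ends of annotated short isoforms had at least 7.00 reads per molecule, and each was seen in at least 1 separate library set. Ptprz1, which is used in NSC, and Dcp2 had no molecule at their sites in control cells. Ppp2r5c, a regulatory subunit of a serine/threonine phosphatase, had 55 of its 70 molecules at the intronic site in ESC-2i, 35 of 45 in ESC-FCS and 3 of 8 in NSC, and 45 of 55 in control cells, 18 of 29 in the ESC-FCS pool, 114 of 136 and 111 of 144 in the ESC-2i pools. This site was the main end of the gene in both embryonic stem cell populations, at 78.6% and 77.8%. For Fbrsl1 the site held 44 of 63, 20 of 25 and 0 of 2 molecules in the order ESC-2i, ESC-FCS, NSC, and 20 of 27, 20 of 23, 82 of 113 and 130 of 159 in the separate libraries. Nap1l1, a histone chaperone, used its intronic site for 9 of 173, 14 of 173 and 11 of 79 molecules, a minor share in all populations. Klf3, a Krüppel-like transcriptional repressor, used its site for 17 of 46, 7 of 20 and 2 of 11 molecules. Tatdn1, a member of a nuclease family, had 8 of 14, 4 of 7 and 9 of 11 molecules at its site. Rnf17, a germ cell gene chosen after its values were seen, had 22 of its 24 molecules in ESC-2i. Its intronic site held 12 of these 22, in 12 cells, and 34 of 38 and 71 of 77 molecules in the ESC-2i pools, 4 of 7 in control cells and 5 of 5 in the ESC-FCS pool. The 12 sites of this kind with at least 10 molecules had 7.00 to 19.8 reads per molecule and held 8.00 to 75.6% of the molecules of their gene.

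Other members far from any annotated end supplied most molecules of their long host gene in the main set, nearly all of them in Kcnk2 and Grm8. Kcnk2, a potassium channel of excitable cells, had 176 molecules at chr1:189277330-189277330, 18264 nt downstream of the nearest exon, and these were 74 of 76, 62 of 64 and 40 of 41 molecules of the gene in ESC-2i, ESC-FCS and NSC. They came from 79 cells with at most 6 in a cell. Per 10000 molecules this was 2.01 (1.58 to 2.52) for ESC-2i, 2.74 (2.10 to 3.51) for ESC-FCS and 2.63 (1.88 to 3.59) for NSC, intervals that overlap, but 0.222 (0.0720 to 0.517) in control cells, 0.0558 for the pooled ESC-FCS cells, 0.250 and 0.0404 for both ESC-2i pools. The highest value was thus in the main ESC-FCS cells and the lowest in an ESC-2i pool, and all separate libraries lay below all populations. Grm8, a metabotropic glutamate receptor, had 48 of 51, 74 of 74 and 22 of 23 molecules at 1 intronic site, at 1.30 (0.961 to 1.73), 3.26 (2.56 to 4.10) and 1.45 (0.908 to 2.19) per 10000. This was higher in ESC-FCS than in both others beyond counting error, but control cells of the same medium had 1.33 (0.897 to 1.90). The ESC-FCS pool had 1.51 (0.993 to 2.19). The ESC-2i pools lay apart from each other, at 2.02 (1.64 to 2.47) and 0.566 (0.376 to 0.818). Camk1d, a calcium/calmodulin-dependent kinase, had 21 of 37, 31 of 37 and 12 of 13 molecules at its site, which was 0.570, 1.37 and 0.790 per 10000. The site reached 4.83 (3.97 to 5.83) in control cells, with 109 of 115 molecules. In the ESC-FCS pool it was at 0.781 (0.427 to 1.31), with 14 of 19, far below the control cells of the same medium. It held 13 of 28 and 8 of 31 molecules in the ESC-2i pools. It was the only site of the 58 whose interval in control cells lay above that in the main ESC-FCS cells, while 7 sites lay below it, in Kcnk2, Grm8, Zfp280d, Gm12724, Dcp2, Ap3b2 and Prkg1. In Ap3b2 and Prkg1, 11 of 12 and 10 of 10 molecules came from 1 ESC-FCS cell. Ryr3, an intracellular calcium channel, had 20 of 23, 12 of 18 and 1 of 1 molecules at its site, with 24 of 29 in control cells and 16 of 24 in the ESC-FCS pool. In the ESC-2i pools that site held 6 of 29 and 5 of 26, and another intronic site, at chr2:112714449-112714449, held 10 and 11.

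**Figure D3:**
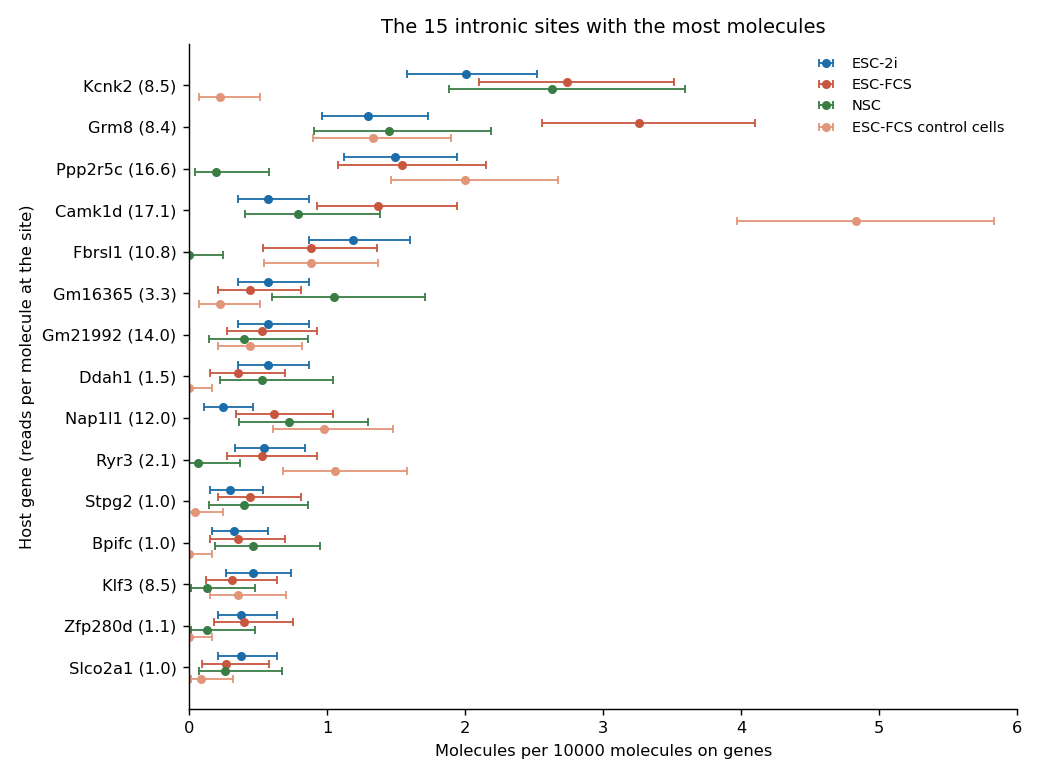
Molecules per 10000 molecules on genes at the 15 intronic sites with the most molecules, in ESC-2i, ESC-FCS, NSC and ESC-FCS control cells, with exact 95% Poisson intervals and the reads per molecule in brackets. Kcnk2 is at 2.01 to 2.74 in the populations and 0.222 in control cells, and Camk1d is at 4.83 in control cells and 0.570 to 1.37 in the populations.

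The remaining sites of the 15 were in Gm16365 (47 molecules), Gm21992 (39), Ddah1 (37), Stpg2 (27), Bpifc (27), Zfp280d (25) and Slco2a1 (24). Several of these rested on a single read per molecule. Stpg2 and Bpifc, each with 27 molecules and 27 reads, and Slco2a1, a prostaglandin transporter gene with 24 and 24, had 1.00 reads per molecule, against 8.26 for intronic sites as a whole and 13.0 for annotated gene ends. Ddah1, an enzyme that degrades methylated arginines, had 1.51. Of the 58 sites with at least 10 molecules, 13 had under 1.2 reads per molecule, none of them at an annotated transcript end. Together these 13 had 2.99 (2.45 to 3.60), 3.13 (2.45 to 3.95) and 3.16 (2.33 to 4.19) molecules per 10000 in ESC-2i, ESC-FCS and NSC, nearly equal in the 3 populations, and 0.355, 0.726, 0.334 and 0.162 in control cells, ESC-FCS pool and ESC-2i pools. Molecules of entries with 1 read each made up 40.8% of intronic molecules, 8.20% at annotated gene ends, 11.7% in last exons and 30.3% in upstream exons. A cause was not tested.

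The 8 genes with at least 20 molecules and the highest intronic share, leaving out genes with intronic sites inside another gene, were Grm8, Ryr3, Tatdn1, Stpg2, Bpifc, Gm12724, Gtsf2 and Slco2a1. In the first 6 every molecule was intronic, from 148 of 148 in Grm8 to 24 of 24 in Gm12724. Gtsf2 had 27 of 28 and Slco2a1 26 of 27. Kcnk2, with 181 of 181, was left out by this rule because 1 of its molecules lay inside another annotated gene, and it was the only gene so left out at or above the share of Slco2a1. In all, 51 of 6031 genes of this depth had an intronic share of 50% or more and 472 one of 10% or more.

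Some members were tied to a well position. Cells of a library were spread over 24 positions (4 rows and 6 columns of a plate section), with the well names in the labels used to place a cell. The intronic site in Desi1, a deSUMOylating peptidase, at chr15:82017044-82017044, had 20 molecules in 6 cells, 1 cell in each batch, and all 6 cells sat in row C, column 1 of their plate section. The counts in ESC-2i, ESC-FCS and NSC batches 1 and 2 were 1, 5, 2, 7, 2 and 3, and the site was not seen in the separate libraries, where the gene had 131 molecules. The same position held the 10 molecules in 5 cells of the site in Dpp10, a dipeptidyl peptidase-like membrane protein. Row A, column 1 held the 10 molecules in 4 cells of the site in Ust, a sulfotransferase, and 7 molecules in 4 cells of each of the sites in Mitd1 and Spint2. These 5 genes were named after their values were seen.

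**Figure D4:**
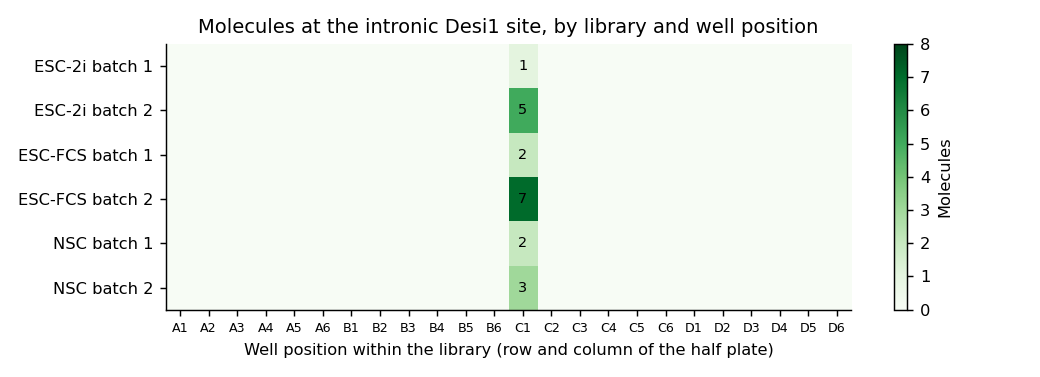
Molecules at the intronic Desi1 site by library batch (rows) and well position (columns, row and column of the plate section). All 20 molecules lie at position C1, with 1 to 7 molecules in each of the 6 batches.

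In all, 25 of 574 intronic sites seen in 3 or more of the 144 cells had all their cells at 1 position (4.36%, 2.84 to 6.36%), against 1 of 8966 sites at annotated gene ends, 3 of 3921 in last exons and 40 of 2036 in the class downstream of annotated ends. Of intronic sites seen in 2 cells, 149 of 1069 shared a position (13.9%, 11.9 to 16.2%), against 4.28% of 1613 sites at annotated gene ends. It was 6.91% in upstream exons and 11.5% downstream of annotated ends (10.1 to 13.0%), an interval that overlaps the intronic one. In the small antisense downstream class it was 36.0% (18.0 to 57.5%), so sharing a position was not particular to intronic sites. None of the 25 was found in a separate library. They were spread over 9 positions, with up to 8 at 1 position. By the labels, a position has 1 cell barcode in ESC-2i and NSC and another in ESC-FCS. Of the 290 intronic sites seen in 1 ESC-FCS cell and 1 cell of another population, 86 shared the position and 3 the labelled barcode. This count takes both well names and barcodes as the labels give them, and an error in either for the ESC-FCS cells would change what is shared. The 174 intronic sites with 2 or more cells at 1 position held 444 molecules. A further 6 sites had 5 or more molecules, all in 1 cell, led by Prkg1 with 10 and Ssc4d with 9. Without these 180 sites the intronic share was 1.68, 2.01 and 2.18% in ESC-2i, ESC-FCS and NSC. Whether the barcoded primers have a part in these sites was not tested.

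To compare use within genes, a gene was called when the intronic share of its molecules differed by at least 10 percentage points between 2 populations, with at least 20 molecules of the gene in both and a difference of the same sign for all 4 combinations of batches. Between ESC-FCS and ESC-2i, 26 of 632 genes with an intronic site were called (4.11%). The same rule, applied to the share of every site class in its gene, called 10.4%, and applied to every single site it called 4.33%. Single intronic sites were called at 9 of 1440 (0.625%). By class, the rule called 2.97% of genes for upstream exons, 3.64% downstream of annotated ends, 12.6% for last exons and 15.8% within 10 nt of annotated gene ends. In this comparison the intronic share was thus called at a rate near that of the other minor classes. Of the 26 genes, 19 were higher in ESC-FCS (all classes, 5.05% of 6553 tested) and 7 higher in ESC-2i (5.36%). The median difference over the 632 genes was 0 points, with 284 above 0 and 286 below.

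The 8 largest differences between these populations were in Snhg3, Map4, Camk1d, Pcmt1, Arl15, Ankrd17, Thoc1 and Stag1. Snhg3, a host transcript of small nucleolar RNAs, had 0 of 24 intronic molecules in ESC-2i (interval 0 to 14.2%) and 12 of 29 in ESC-FCS (41.4%, 23.5 to 61.1%). By batch these were 0 of 6 and 0 of 18 in ESC-2i, and 7 of 13 and 5 of 16 in ESC-FCS. The site lies in Rcc1 and Snora73b as well, so the gene these molecules come from cannot be told apart. In the separate libraries the share was 29.4% of 17 molecules in the ESC-2i pools and 15.9% of 107 in the ESC-FCS libraries, the opposite direction. Map4, a microtubule-associated protein, had 3 of 64 intronic molecules in ESC-2i and 8 of 22 in ESC-FCS (36.4%, 17.2 to 59.3%), 7 of the 8 in batch 1, and its main site had 1.00 reads per molecule. Camk1d had 24 of 37 (64.9%, 47.5 to 79.8%) and 34 of 37 (91.9%, 78.1 to 98.3%), intervals that overlap. Pcmt1, a protein repair methyltransferase, was higher in ESC-2i, with 6 of 23 against 0 of 22. Arl15, a small GTPase, had 18 of 32 in ESC-2i and 18 of 23 in ESC-FCS. Ankrd17 had 3 of 50 and 7 of 26, Thoc1, of the THO mRNA export complex, 3 of 22 and 7 of 21, and Stag1, a cohesin subunit, 2 of 25 and 6 of 22. Except for Snhg3 and Map4, the intervals of the 2 populations overlapped in each of these 8 genes.

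The separate libraries gave a second look at the same contrast of media. Of the 26 called genes, 23 had at least 20 molecules in both the 2 ESC-2i pools and the ESC-FCS control cells with the ESC-FCS pool. In 11 of the 23 the difference had the same direction, in 3 there was none, and in the rest it was opposite. Only in Camk1d, 1 of the 11, did it reach 10 points again, with 72.9% in the ESC-2i pools and 95.5% in the ESC-FCS libraries. Map4 had 0 of 328 intronic molecules in the ESC-2i pools and 1 of 67 in the ESC-FCS libraries. Thoc1 and Jade1 went the other way by more than 10 points. Thoc1 had 21.7% of 60 and 0 of 58, and Jade1 25.7% of 101 and 10.7% of 56. Klf3 kept its direction, with 42.9% of 77 and 33.3% of 54.

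**Figure D5:**
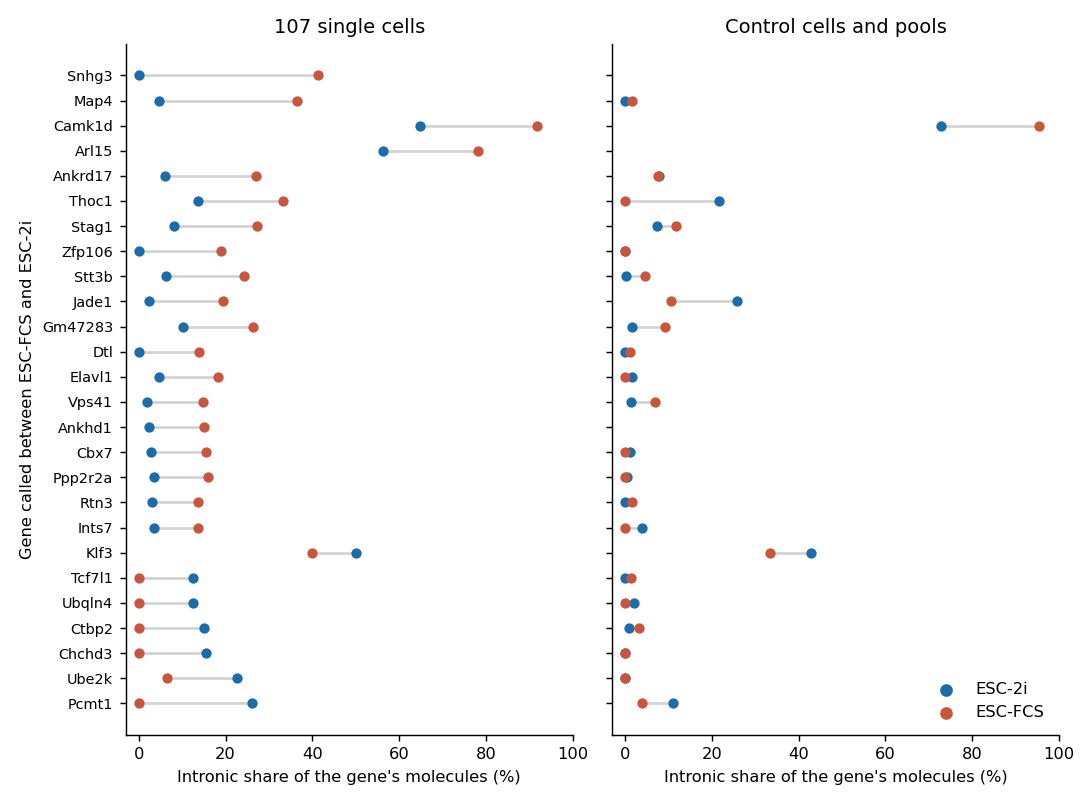
Intronic share of the molecules of each of the 26 genes called between ESC-FCS and ESC-2i, in the 107 single cells (left) and, where both media had at least 20 molecules, in the control cells and pools (right). Camk1d is at 64.9 and 91.9% on the left and 72.9 and 95.5% on the right, while most genes that differ on the left lie close together on the right.

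Between NSC and ESC-2i, 11 of 388 genes were called (2.84%, against 12.0% over all classes). Of these, 5 were higher in NSC (all classes, 6.08%) and 6 higher in ESC-2i (5.89%). Single intronic sites were called at 5 of 834, against 5.60% of all sites. By class, the rule called 4.68% of genes for upstream exons and 6.34% downstream of annotated ends, both above the intronic rate. Ddah1 was the largest, with 23 of 44 intronic molecules in ESC-2i (52.3%, 36.7 to 67.5%) and 9 of 45 in NSC (20.0%, 9.58 to 34.6%). In the separate libraries, which hold no NSC, Ddah1 had 1.45% of 138 molecules in the ESC-2i pools and 2.78% of 36 in the ESC-FCS libraries. Klc1, a kinesin light chain, had 4 of 21 in ESC-2i and 0 of 20 in NSC. Mtss1, an actin-binding protein, had 9 of 57 and 0 of 24, with 8 of the 9 in batch 1. Ankrd17 had 3 of 50 and 7 of 33, and Lrpprc, a mitochondrial RNA-binding protein, 1 of 24 and 4 of 22. Chchd3, of the mitochondrial inner membrane, had 6 of 39 and 1 of 29, and Fam120a 5 of 44 and 0 of 30. Nap1l1 had 11 of 173 in ESC-2i (6.36%) and 14 of 79 in NSC (17.7%), and it was the only gene called here with at least 50 molecules in both populations. Its batches differed within ESC-2i, with 10 of 82 and 1 of 91, while NSC had 7 of 35 and 7 of 44. In these genes other than Ddah1 the intervals overlapped.

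Between NSC and ESC-FCS, 6 of 331 genes were called (1.81%, against 11.1% over all classes). Of these, 1 was higher in NSC (all classes, 5.65%) and 5 were higher in ESC-FCS (5.46%). Single intronic sites were called at 2 of 709, against 4.35% of all sites. Upstream exons were called in 6.77% of genes and sites downstream of annotated ends in 4.91%, both above the intronic rate. Map4 had 8 of 22 in ESC-FCS and 1 of 20 in NSC, and Ddah1 10 of 23 and 9 of 45. Stt3b, a catalytic subunit of oligosaccharyltransferase, had 9 of 37 and 1 of 36, Gm47283 14 of 53 and 6 of 42, and Tmem167 5 of 34 and 1 of 37. Lrpprc was higher in NSC, with 1 of 31 and 4 of 22. In all 6 genes the intervals of the 2 populations overlapped. The 3 comparisons share populations, so Ddah1, Map4, Ankrd17, Chchd3, Stt3b, Gm47283 and Lrpprc appear in more than 1 of them and are not independent results.

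In the gene lists, which were put together with earlier results of these data known, few genes had enough molecules to be tested. Of the 23 genes of the 3′ end machinery, 3 were tested in each comparison and 0 were called, where 4.11% or less of all genes with an intronic site were. Among them 10 of 23 had an intronic molecule, and the intronic share of their molecules was 2.12% (1.58 to 2.79%). Cstf3, a subunit of the cleavage stimulation factor, led with 18 of 43 molecules over 10 sites, 10 of 17 in ESC-2i, 3 of 14 in ESC-FCS and 5 of 12 in NSC, against 2 of 25, 0 of 8, 1 of 19 and 0 of 30 in control cells, ESC-FCS pool and ESC-2i pools. Wdr33, a subunit that reads the poly(A) signal, had 5 of 18, 2 of 8 and 8 of 12, and 4 of 18, 0 of 1, 4 of 22 and 9 of 25 in the separate libraries. Pcf11, a termination factor, had 7 of 25 molecules at 3 sites, 5 of them at the end of an annotated short transcript. Genes that guard against premature cleavage had an intronic molecule in 17 of 21 members and a share of 2.52% (1.97 to 3.18%). Of all genes with any molecule 27.1% had an intronic one, and of those with at least 20 molecules 35.8%. Of the genes with the longest span 60.6% did. Neither this list nor the 3′ end machinery was matched to these genes by level or span. Scaf4, of the same anti-terminator pair as Scaf8, had 0 of 13 in ESC-2i, 8 of 21 in ESC-FCS and 0 of 10 in NSC, and the separate libraries had 3 of 22, 4 of 12, 2 of 14 and 9 of 21. Scaf8 had 6 of 25 in all. The RNA-binding proteins Mbnl2, Elavl1 and Hnrnpc had 14 of 22, 9 of 61 and 9 of 360. Elavl1 was called between ESC-FCS and ESC-2i (1 of 22 and 4 of 22), 1 of 10 tested genes of its list, beside 4.11% of all 632 genes. The SR and Hnrnp list had 0 of 9 and the pluripotency list 0 of 5 called there, and the other lists of this comparison, apart from the machinery, had no testable gene. The most used intronic site of Elavl1, with 3 molecules in ESC-2i and NSC, was one of the 25 tied to a well position. SR and Hnrnp splicing factors had a share of 0.621% (0.438 to 0.856%), with Tra2a at 9 of 149.

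Neural stem cell genes had an intronic share of 2.63% in ESC-2i (0.722 to 6.60%, 4 of 152 molecules) and 11.3% in ESC-FCS (5.99 to 18.9%, 12 of 106). In NSC it was 4.85% (3.77 to 6.13%, 66 of 1361). Ptprz1, a receptor-type phosphatase of neural progenitors, supplied 29 of these 66, from 61 molecules of the gene in NSC (47.5%, 34.6 to 60.7%), and 19 of the 29 were at the annotated short transcript end shown above. Bcan, the proteoglycan brevican, had 14 of 71 molecules (19.7%, 11.2 to 30.9%) at the site shown above, in 10 NSC cells. The transcription factors Nfia and Nfib had 12 of 57 and 4 of 38 intronic molecules in NSC, over 10 sites in Nfia. Slc1a3, a glutamate transporter of neural stem cells, supplied 9 of the 12 intronic molecules of the list in ESC-FCS. There 9 of its 9 molecules were intronic, all at 1 site and with 14.8 reads per molecule, while 0 of its 37 in NSC were. Thus all molecules counted as Slc1a3 in the main ESC-FCS cells came from the intronic site. None of the 3 molecules of the gene in control cells lay at that site.

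Pluripotency genes had an intronic share of 0.590% in ESC-2i and 0.464% in ESC-FCS, with no member at 5 or more intronic molecules. Brip1, a helicase of DNA repair, had 5 of 9 molecules intronic, over 5 sites. Receptor tyrosine kinases had 6.82% (18 of 264) and non-neural differentiation markers 9.21% (14 of 152), with Pecam1 at 5 of 35. Over all genes the share was 1.95%. These lists differ in level and span, along which the share varies as given above, and the lists were not compared by a test.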

How the data were processed

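Poly(A) sites were measured by BATSeq in single cells and pools. The deposited counts are whole numbers of UMIs (molecules) and of reads per site and cell, not normalized, made by the authors with GSNAP alignment to GRCm38 and HTSeq, removal of reads before A-rich genomic stretches, merging of similar UMIs within a gene and collapse of sites within 12 nt. Site classes are theirs. Where the header of a single-sample table swaps position and class, columns were read by content.

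Populations and batches came from the labels. Members, gene lists and rules were chosen with earlier results of these data known. Molecules on genes exclude antisense classes other than the downstream one. A cell was used if the authors' gene table lists it and it had 1000 or more molecules, and depth is given in the report. Shares carry exact Clopper-Pearson and rates exact Poisson intervals (95%, Python 3.11.15, scipy 1.17.1). There is no test between populations. Calls need 10 points and 20 molecules. The rule was run on simulated data with 200 changed genes, where all other genes had the same intronic share and only counting error. Shares in the real genes vary, so this run gives no rate of false calls for these data. Annotation and transcript sequence are GENCODE M21. Named are the 15 most used sites, up to 8 called genes per comparison, 8 genes of highest intronic share, and list genes with at least 5 intronic molecules. The results of 1 list gene and of its list as a whole are not reported here. Gene symbols come from the reference table of names. Alternatives were other cell, depth and size limits, reads as unit, and leaving out groups of sites.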

Additional observations from a re-analysis of the deposited data

How the results depend on the processing

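Of 67 alternative values, 29 stayed within the spread and 38 moved. The intronic share of ESC-2i, ESC-FCS and NSC was 0.205, 0.263 and 0.228% at sites with at least 10 molecules, 1.24, 1.39 and 1.34% in reads, and 1.55, 1.90 and 2.09% without sites at annotated ends or in other genes. In batch 1 alone it was 1.78% in ESC-2i and 2.50% in NSC, in batch 2 alone 1.68 and 2.01%, and without mitochondrial genes 2.39% in NSC. With alternatives chosen after seeing the data it was 1.18, 1.41 and 1.51% for molecules with more than 1 read on average, 1.68, 2.01 and 2.18% without sites of 1 well position or 1 cell, and 0.804, 0.831 and 0.953% without sites of 1 molecule. Without sites of 1 molecule the intervals of ESC-2i (0.774 to 0.834%) and ESC-FCS (0.793 to 0.871%) overlapped, and NSC was below ESC-FCS in reads, in batch 2 and at sites with at least 10 molecules.

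Genes called between ESC-FCS and ESC-2i, NSC and ESC-2i, and NSC and ESC-FCS numbered 26 of 632 tested, 11 of 388 and 6 of 331. With at least 10 molecules per gene they were 95 of 1287, 70 of 937 and 47 of 790. With at least 50 they were 0 of 197, 1 of 105 and 0 of 95. At 20 points they were 6, 1 and 3 of the genes tested in the main setting. An alternative chosen after seeing the data took molecules with more than 1 read on average. It called 11 of 409, 5 of 248 and 2 of 211. With no condition on batches, 17 of 388 were called between NSC and ESC-2i. The rate over all classes is not given for these other settings. The share of sites with a signal was 39.1% over all readable sites, and 58.3% of sites with at least 5 molecules were found again.

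The alternative on A-rich sequence downstream of a site was not run, since no genome sequence was used. No paired analysis was possible because the results come from no test. With 1 culture per population, culture, library and population cannot be told apart, and sites of 1 molecule rest on too few counts to compare.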
